A study of Mus musculus with 3 samples.

Results

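The genes described here are 35 members of the sugar-burning and low-oxygen programmes of the cell: 20 genes of glycolysis (glucose and lactate transporters, the enzymes of the pathway and the regulators of phosphofructokinase) and 15 hypoxia-only genes, namely Hif1a and genes that the hypoxia-inducible factors (HIF) switch on or that act with them and are not glycolytic enzymes. They were picked by symbol from the 55357 gene identifiers of the count matrices. Of the 35, 34 were found under their listed symbol; Ero1l was found as Ero1a, a synonym in RefSeq. Aldoa had 2 identifiers, which were summed, and the second held 4 of its UMIs in sgVC and 0 in sgCPT1A.

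The study grew tumours of 4T1, a mouse mammary carcinoma cell line, in female mice aged 8-10 weeks; the tumour-bearing mice were kept for 8 days. One group carried 4T1-sgVC cells, with the genotype labelled WT, and the other carried 4T1-sgCPT1A cells, with the genotype labelled as a CPT1A knockdown (spelled "knowkdown" in the labels). Cpt1a encodes the enzyme that lets long-chain fatty acids into mitochondria for oxidation, and the manipulation was made in the tumour cells, so neutrophils, macrophages, T cells, dendritic cells and fibroblasts came from the host mice. The labels call the tissue a xenograft and give no host strain. Whole tumours were dissociated with no sort, and single-cell 3′ libraries (10x Genomics) were made. There was 1 library per group, so no difference below has a replicate check, no test was run, and libraries, mice and groups cannot be told apart. A further sgCPT1A sample is listed and was not analysed here; whether its reads entered the sgCPT1A counts is not known.

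Glycolysis splits glucose into pyruvate in the cytosol, and lactate dehydrogenase turns pyruvate into lactate when it is not passed to mitochondria. When oxygen is short, the prolyl hydroxylases encoded by the Egln genes can no longer mark HIF-1α, the protein product of Hif1a, for destruction, and the stabilised factor binds a short core motif near its target genes. Nearly every glycolytic enzyme is such a target, but these enzymes are also driven by growth signals and immune activation, which is why genes such as Bnip3, Ankrd37, Egln3 and Car9 are often read as a separate sign of the hypoxia response.

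The sgVC library held 9890 barcodes and 155948212 unique molecular identifiers (UMIs, each standing for 1 captured transcript), and the sgCPT1A library 7198 barcodes and 35557125 UMIs; the median barcode had 10809 and 2786 UMIs. After filtering, 9319 and 6743 cells remained, and 18 barcodes occurred in both libraries. Classes were named by markers. Neutrophil-like cells numbered 1796 in sgVC and 5122 in sgCPT1A, monocyte/macrophage-like cells 1381 and 300, T-like 854 and 553, dendritic-like 244 and 94, and fibroblast-like 400 and 514. Tumour-like cells numbered 4458 in sgVC and only 10 in sgCPT1A, so the members are described for tumour cells of sgVC alone. Which library holds more of a class can also follow from dissociation and capture. The tumour-like cells carried Krt8 (649 CPM), Krt18 (549 CPM) and Wfdc2 (2414 CPM) but 0 UMIs of the epithelial marker Epcam. A small cluster with Epcam, kept apart, had higher Krt8 (4912 CPM) and Krt18 (7740 CPM) and lower Wfdc2 (1193 CPM) in sgVC. Levels are in CPM, the usual scale that divides a gene's UMIs in a class by all UMIs of that class and library; UMIs from transcript ends carry no correction for gene length. Cpt1a stood at 17.3 CPM (exact Poisson 95% interval 16.6 to 18.1) in sgVC tumour-like cells; the 10 sgCPT1A cells held 1 UMI, which cannot check the label. In neutrophil-like cells Cpt1a was at 7.90 CPM in sgVC and at 15.9 CPM in sgCPT1A. It was higher in sgCPT1A in the other host classes as well. The levels in sgVC and sgCPT1A were 22.7 and 43.7 CPM in monocyte/macrophage-like and 20.0 and 30.8 in T-like cells. They were 17.0 and 27.2 CPM in dendritic-like and 27.5 and 46.3 in fibroblast-like cells.

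The promoters of 6 members are shown because these genes carry much of what follows: Fam162a, Egln1 and Bnip3 had some of the largest differences in neutrophils, Hk2 went the other way, and Pgk1 and P4ha1 stand for the enzymes and the collagen hydroxylases. The sequences are from RefSeq (GRCm38.p6), 5′ to 3′ on the gene's strand, end just before the gene's annotated start, and are in lower case with each ACGTG or GCGTG (the core motif of HIF binding, on either strand, so also CACGT or CACGC) in capitals; the CACGTG in Bnip3 holds 2 overlapping matches.
Fam162a: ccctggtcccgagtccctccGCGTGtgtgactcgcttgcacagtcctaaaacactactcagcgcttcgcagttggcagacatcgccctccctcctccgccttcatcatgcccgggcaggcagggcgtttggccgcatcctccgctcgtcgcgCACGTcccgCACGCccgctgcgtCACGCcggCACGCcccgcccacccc
Egln1: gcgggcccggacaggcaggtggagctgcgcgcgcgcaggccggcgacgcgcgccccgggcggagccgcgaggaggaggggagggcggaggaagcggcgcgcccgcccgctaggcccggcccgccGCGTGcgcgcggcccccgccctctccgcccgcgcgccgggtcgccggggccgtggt
Bnip3: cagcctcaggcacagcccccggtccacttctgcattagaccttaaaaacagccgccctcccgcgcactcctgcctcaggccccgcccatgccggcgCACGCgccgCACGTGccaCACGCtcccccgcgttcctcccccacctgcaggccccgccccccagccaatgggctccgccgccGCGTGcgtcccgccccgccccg
Hk2: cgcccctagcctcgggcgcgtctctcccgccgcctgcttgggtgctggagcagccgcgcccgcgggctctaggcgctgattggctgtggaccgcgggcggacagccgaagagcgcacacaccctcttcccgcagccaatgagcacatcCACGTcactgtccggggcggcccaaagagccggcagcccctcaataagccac
Pgk1: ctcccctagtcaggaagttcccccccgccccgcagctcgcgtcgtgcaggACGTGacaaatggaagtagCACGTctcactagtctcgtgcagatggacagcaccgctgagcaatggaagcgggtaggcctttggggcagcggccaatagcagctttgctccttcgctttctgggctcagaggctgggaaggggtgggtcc
P4ha1: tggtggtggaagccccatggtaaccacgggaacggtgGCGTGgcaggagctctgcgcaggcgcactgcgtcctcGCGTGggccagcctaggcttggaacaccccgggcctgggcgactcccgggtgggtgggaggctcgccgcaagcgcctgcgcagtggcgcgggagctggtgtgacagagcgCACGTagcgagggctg

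These stretches are chr16:36071595-36071794 (minus strand), chr8:124949325-124949504 (minus), chr7:138909520-138909719 (minus), chr6:82774455-82774654 (minus), chrX:106186900-106187099 (plus) and chr10:59323096-59323295 (plus). The genes themselves lie at chr16:36043761-36071594, chr8:124908587-124949324, chr7:138890836-138909519, chr6:82725025-82774454, chrX:106187100-106203699 and chr10:59323296-59373304 in GENCODE M21 on GRCm38. Promoters were at hand for 32 of the 35 members; Slc2a3, Bnip3l and Ndrg1 had none. The printed stretches stop at the GENCODE start, which lies 33, 70 and 13 bases before the RefSeq start for Fam162a, Egln1 and Bnip3. Motifs were counted in the 250 bases before the RefSeq start, where Egln1 and Hk2 hold a further ACGTG and Fam162a a further GCGTG. In this window either motif occurred in 23 of 28 glycolysis promoters (82.1%) and 14 of 16 hypoxia-only promoters (87.5%), against 38.6% of all 32851 promoters and 52.2% of the 15552 promoters of genes with 20 or more UMIs here. ACGTG alone was in 81.2% of hypoxia-only and 42.9% of glycolysis promoters, against 20.5% for genes with 20 or more UMIs. Some genes have several promoters and count more than once. The median number of CpG dinucleotides in the window, which bears on how often these motifs occur, was 20 in hypoxia-only, 14 in glycolysis and 14 in the promoters of genes with 20 or more UMIs; its part in these shares was not tested. Both Gpi1 and Tpi1 had neither motif in this window.

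Across cell classes of the sgVC tumour, the summed level of the 20 glycolysis members was 11657 (11588 to 11726) CPM in monocyte/macrophage-like, 11078 (10954 to 11202) in neutrophil-like and 10232 (10214 to 10250.4) in tumour-like cells, each with its exact Poisson 95% interval. T-like cells had 7819.9, fibroblast-like 6587.5 and dendritic-like 6245 CPM. The hypoxia-only members had another order: neutrophil-like cells were highest at 4190.3 (4115 to 4267) CPM, followed by tumour-like cells at 2557, fibroblast-like cells at 2149.8, monocyte/macrophage-like cells at 1929, T-like cells at 1538 and dendritic-like cells at 912 CPM. All intervals cover counting error only, and neighbouring classes did not overlap in them. In sgCPT1A the summed glycolysis level was lower in each of the 5 classes compared: 6197 CPM in neutrophil-like, 10118 in monocyte/macrophage-like, 5957 in T-like, 3263 in dendritic-like and 3768 in fibroblast-like cells. Hypoxia-only genes summed to 1769, 1955, 1336, 565 and 1556 CPM in the same order, so that macrophage-like cells were at the sgVC level and the other classes below it.

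**Figure D1:**
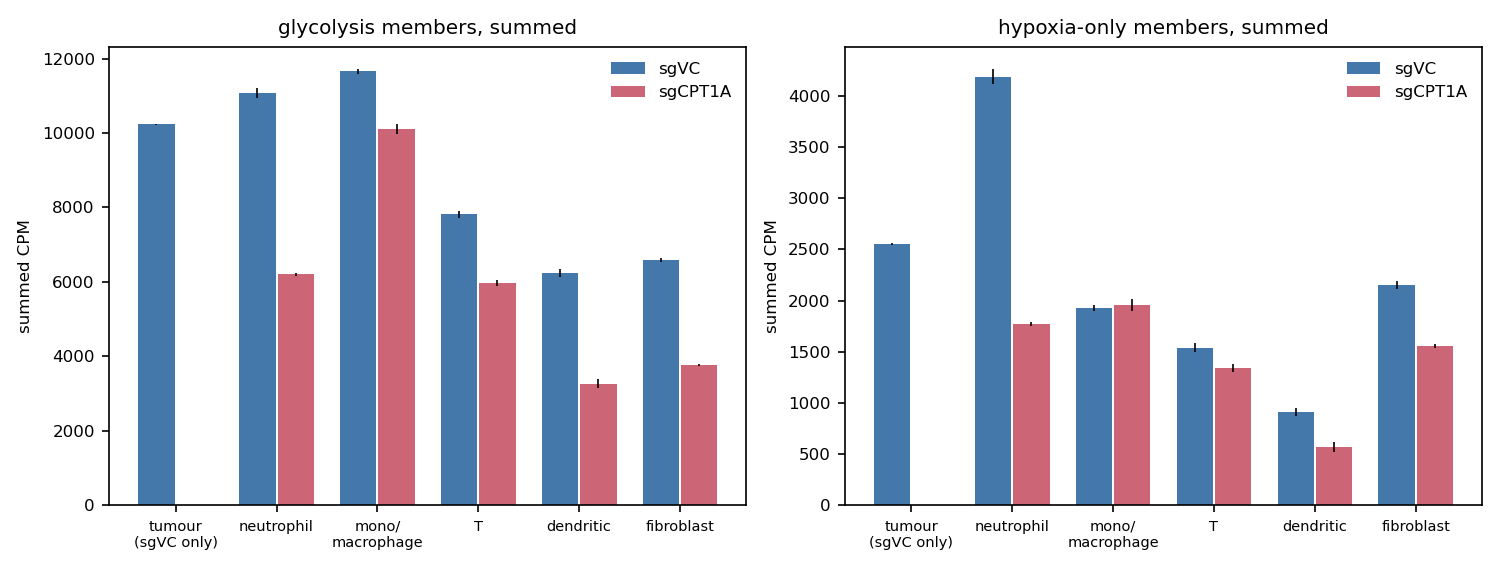
Summed CPM of the 20 glycolysis members (left) and the 15 hypoxia-only members (right) in each cell class, with sgVC in blue and sgCPT1A in red; bars start at 0 and error bars are exact Poisson 95% intervals on 1 library each. Neutrophil-like cells of sgVC have the tallest hypoxia-only bar (4190.3 CPM), and tumour-like cells are shown for sgVC alone.

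Which member of a gene family was used differed by class, and such shares do not depend on how a class is scaled. Lactate leaves cells through the monocarboxylate transporters: Slc16a3, the low-affinity exporter of glycolytic cells, made up 99.4% (98.8 to 99.7) of Slc16a1 and Slc16a3 UMIs in sgVC neutrophil-like cells (exact Clopper-Pearson 95% interval) and 80.0% (77.9 to 82.1) in monocyte/macrophage-like cells, but 0.761% (0.596 to 0.958) in tumour-like cells, which used Slc16a1. After each cell was thinned to 1000 UMIs, 35.8% of sgVC neutrophil-like cells had a Slc16a3 UMI against 0.0906% of tumour-like cells; unthinned, the shares were 44.4% and 1.44%, at median depths of 1460.5 and 23632 UMIs per cell. Of these classes, 331 and 45 cells were too shallow to thin.

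Among glucose importers, Slc2a1 (GLUT1) supplied 99.1% (98.9 to 99.3) of the pair's UMIs in tumour-like cells, while Slc2a3 (GLUT3, a high-affinity carrier of neurons and leukocytes) supplied 55.3% (50.9 to 59.6) in T-like and 24.6% (22.7 to 26.7) in neutrophil-like cells. Hexokinases trap glucose by phosphorylation. Hk3, a myeloid form, was 35.4% (33.6 to 37.3) of hexokinase UMIs in monocyte/macrophage-like, 25% (22.4 to 27.7) in neutrophil-like and 0.259% (0.183 to 0.355) in tumour-like cells. Phosphofructokinase, the committing step, was mainly Pfkp in dendritic-like cells, at 87.9% (85.2 to 90.2), in neutrophil-like cells, at 78.0% (75.8 to 80.0), and in T-like cells, at 76.3% (73.0 to 79.3). It was mainly Pfkl in tumour-like cells, at 67.3% (66.7 to 67.8), and in fibroblast-like cells, at 54.9% (51.3 to 58.4). Aldoa held 93.8% or more of its pair with Aldoc, and Ldha 96.9% or more of its pair with Ldhb, in each of the 6 classes.

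The hypoxia-only families differed as well. Egln3, the most oxygen- and HIF-responsive of the prolyl hydroxylases, was 57.0% (53.7 to 60.2) of Egln UMIs in neutrophil-like and 42.0% (41.4 to 42.5) in tumour-like cells of sgVC, but 9.52% (7.93 to 11.3) in fibroblast-like cells, where Egln1, the main oxygen sensor, was 65.1% (62.3 to 67.7). Bnip3 and Bnip3l, receptors for the removal of mitochondria, were split 62.1% to 37.9% in neutrophil-like and 12.6% to 87.4% in T-like cells. P4ha2, a subunit of the enzyme that hydroxylates collagen proline, was 51.2% (49.2 to 53.2) of P4ha UMIs in fibroblast-like cells, 20% (19.4 to 20.5) in tumour-like and 0.801% (0.261 to 1.86) in neutrophil-like cells. Car9, a surface carbonic anhydrase and a classic HIF target, was highest in tumour-like cells of sgVC, at 23.8 CPM (22.9 to 24.7). It was at 5.66 CPM in dendritic-like cells, on 12 UMIs of which 6 came from 1 cell, at 5.29 in monocyte/macrophage-like, 4.49 in fibroblast-like and 0.359 CPM, on 1 UMI over 1796 cells, in neutrophil-like cells.

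**Figure D2:**
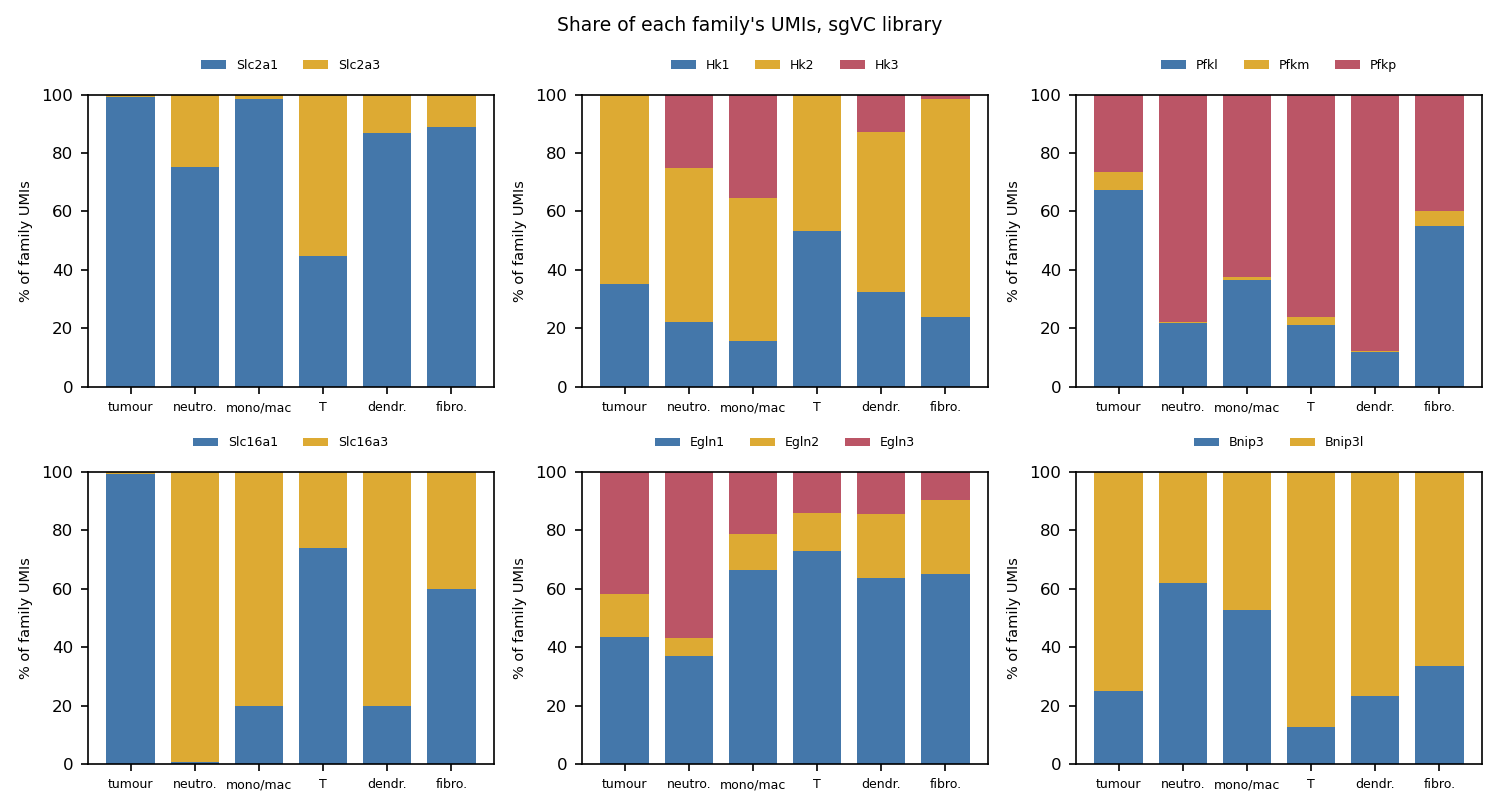
Stacked bars give each member's percentage of its family's summed UMIs in 6 cell classes of the sgVC library. Slc16a3 fills the neutrophil bar (99.4%) and is nearly absent from the tumour bar (0.761%), and Hk3 appears mainly in the neutrophil and monocyte/macrophage bars.

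Single members had their own order of levels. Hif1a was highest in T-like cells of sgVC, at 600.3 CPM (574 to 627). Fibroblast-like (264 CPM), monocyte/macrophage-like (253) and neutrophil-like cells (248) followed, with overlapping intervals, and dendritic-like (130.3) and tumour-like cells (118) were lowest. Fam162a ran from 1165 CPM in neutrophil-like and 719 in tumour-like cells to 134 in dendritic-like cells. Ero1a, which reoxidises the enzyme that makes disulphide bonds, was at 1048 CPM in neutrophil-like cells and no more than 249 CPM in the other classes of sgVC described here. Bnip3, Ankrd37, Egln3 and Slc2a1 were likewise highest in neutrophil-like cells, at 451, 164, 184 and 501 CPM, against 131, 59.1, 102 and 109 CPM in tumour-like cells. These are class levels, and clusters within a class differed. In tumour-like cluster 11, described below, Ero1a was at 941, Slc2a1 at 458, Bnip3 at 403, Ankrd37 at 129 and Egln3 at 110 CPM. Pdk1, whose kinase keeps pyruvate out of the mitochondrion, was highest in tumour-like cells, at 41.7 CPM.

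In neutrophil-like cells most members were lower in sgCPT1A. Ratios below are log2 of sgCPT1A over sgVC, each with its exact conditional binomial 95% interval, for members that had 20 UMIs or more in the libraries combined, and a member is called higher or lower from 1.5-fold on. Of 19 glycolysis members measured, 10 were lower and 1 higher, and of 13 hypoxia-only members 9 were lower and 0 higher; over all 9193 genes measured in this class, 36% were lower and 17.5% higher. The median log2 ratio was -0.67 for glycolysis and -1.02 for hypoxia-only genes, against -0.30 for all genes. Not measured were Aldoc (9 and 8 UMIs), P4ha2 (5 and 8 UMIs) and Car9 (1 and 0 UMIs).

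The glucose importers were lower over the class as a whole. Slc2a1 was at 501 CPM in sgVC against 314 CPM in sgCPT1A (log2 ratio -0.67, -0.76 to -0.59). Slc2a3 was at 164 CPM in sgVC against 72.5 CPM in sgCPT1A (log2 ratio -1.18, -1.34 to -1.01). The lactate exporter Slc16a3 was nearly level, at 487 CPM in sgVC against 464 CPM in sgCPT1A (log2 ratio -0.07, -0.15 to 0.02). Among the upper steps, Gpi1, the glucose-6-phosphate isomerase, had the largest difference of the list, at 318 CPM in sgVC against 80.8 CPM in sgCPT1A (log2 ratio -1.97, -2.10 to -1.85); within the clusters described below it was smaller, from -1.68 to -0.77. Pfkp stood at 424 CPM (sgVC) and 208 CPM (sgCPT1A), a log2 ratio of -1.02 (-1.12 to -0.92). Aldoa, the aldolase that splits the sugar, stood at 885 CPM (sgVC) and 428 CPM (sgCPT1A), a log2 ratio of -1.05 (-1.12 to -0.98), and Tpi1, which interconverts the trioses, at 684 CPM (sgVC) and 368 CPM (sgCPT1A), a log2 ratio of -0.89 (-0.97 to -0.82). Hk2, the inducible hexokinase, was the exception and was higher, at 202 CPM in sgVC against 305 CPM in sgCPT1A (log2 ratio 0.60, 0.47 to 0.73). Hk1 (-0.05, -0.25 to 0.16), Hk3 (0.12, -0.07 to 0.31) and Pfkl (-0.42, -0.60 to -0.24) lay within 1.5-fold. So did the regulators Pfkfb3 (-0.20, -0.33 to -0.07) and Pfkfb4 (-0.38, -0.70 to -0.04), whose products make the activator of phosphofructokinase.

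The lower steps of the pathway were all below 0. Gapdh, which oxidises glyceraldehyde-3-phosphate, was at 2735 CPM in sgVC against 1020.5 CPM in sgCPT1A (log2 ratio -1.42, -1.46 to -1.38), and it differed 2.68-fold although it often serves as a reference gene. Ldha was at 1074 CPM in sgVC against 516 CPM in sgCPT1A (log2 ratio -1.06, -1.12 to -1.0). Pgam1, the mutase, was at 834 CPM in sgVC against 445 CPM in sgCPT1A (log2 ratio -0.91, -0.97 to -0.84). Pgk1, the first ATP-making step, stood at 450.1 CPM (sgVC) and 277 CPM (sgCPT1A), a log2 ratio of -0.70 (-0.79 to -0.61). Pyruvate kinase, Pkm (-0.58, -0.63 to -0.52), and enolase, Eno1 (-0.47, -0.57 to -0.38), differed by less than 1.5-fold. These enzymes have near-identical copies in the mouse genome, and how reads shared between copies were counted is not given in the sources used here; Eno1b, the copy of Eno1, held 6.83 CPM in sgVC neutrophil-like cells. Of cells thinned to 1000 UMIs, 51.9% in sgVC and 32.6% in sgCPT1A had an Ldha UMI, leaving out 331 and 461 shallower cells, against 61.5% and 52.5% unthinned; no class lacked Ldha.

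Among hypoxia-only genes, Fam162a, a mitochondrial protein linked to hypoxic cell death, was 5.21-fold lower, at 1165 CPM in sgVC against 223 CPM in sgCPT1A (log2 ratio -2.38, -2.45 to -2.31), the largest difference among the members measured in this class. The oxygen sensors parted over the class as a whole: Egln1 was at 119 CPM in sgVC against 23.7 CPM in sgCPT1A (log2 ratio -2.32, -2.55 to -2.10), whereas Egln3 was at 184 CPM in sgVC against 147 CPM in sgCPT1A (log2 ratio -0.32, -0.46 to -0.18). Egln3 thus made up 57.0% (53.7 to 60.2) of Egln UMIs in sgVC and 80.2% (78.6 to 81.7) in sgCPT1A. Hif1a itself was close to the median of all genes, at 248 CPM in sgVC against 207 CPM in sgCPT1A (log2 ratio -0.26, -0.38 to -0.14). The mitophagy receptors were lower, Bnip3 at 451 CPM in sgVC against 164 CPM in sgCPT1A (log2 ratio -1.46, -1.56 to -1.36) and Bnip3l at 275 CPM (sgVC) and 136 CPM (sgCPT1A), a log2 ratio of -1.02 (-1.14 to -0.89). Pdk1 lay within 1.5-fold (-0.22, -0.79 to 0.38).

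Ero1a was at 1048 CPM in sgVC against 475 CPM in sgCPT1A (log2 ratio -1.14, -1.21 to -1.08). Of its 2918 UMIs in sgVC neutrophil-like cells, 2193 lay in cluster 0 of the clusters described below. Ankrd37, an ankyrin-repeat protein and HIF target, was at 164 CPM in sgVC against 54.0 CPM in sgCPT1A (log2 ratio -1.60, -1.77 to -1.43). Mxi1, an antagonist of MYC, was at 50.3 CPM in sgVC against 23.1 CPM in sgCPT1A (log2 ratio -1.12, -1.42 to -0.83), Ndrg1 at 196 CPM (sgVC) and 99.99 CPM (sgCPT1A), a log2 ratio of -0.97 (-1.12 to -0.83) and P4ha1 at 222 CPM (sgVC) and 141 CPM (sgCPT1A), a log2 ratio of -0.66 (-0.79 to -0.53). Ddit4 (REDD1, an inhibitor of mTORC1) was the single measured hypoxia-only gene above 0, at 53.5 CPM in sgVC against 64.5 CPM in sgCPT1A (log2 ratio 0.27, 0.02 to 0.53). In the promoters printed above, Hk2 and Fam162a both hold a HIF core motif. So did 52.2% of the promoters of genes with 20 or more UMIs, and a link between motif and ratio was not tested.

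**Figure D3:**
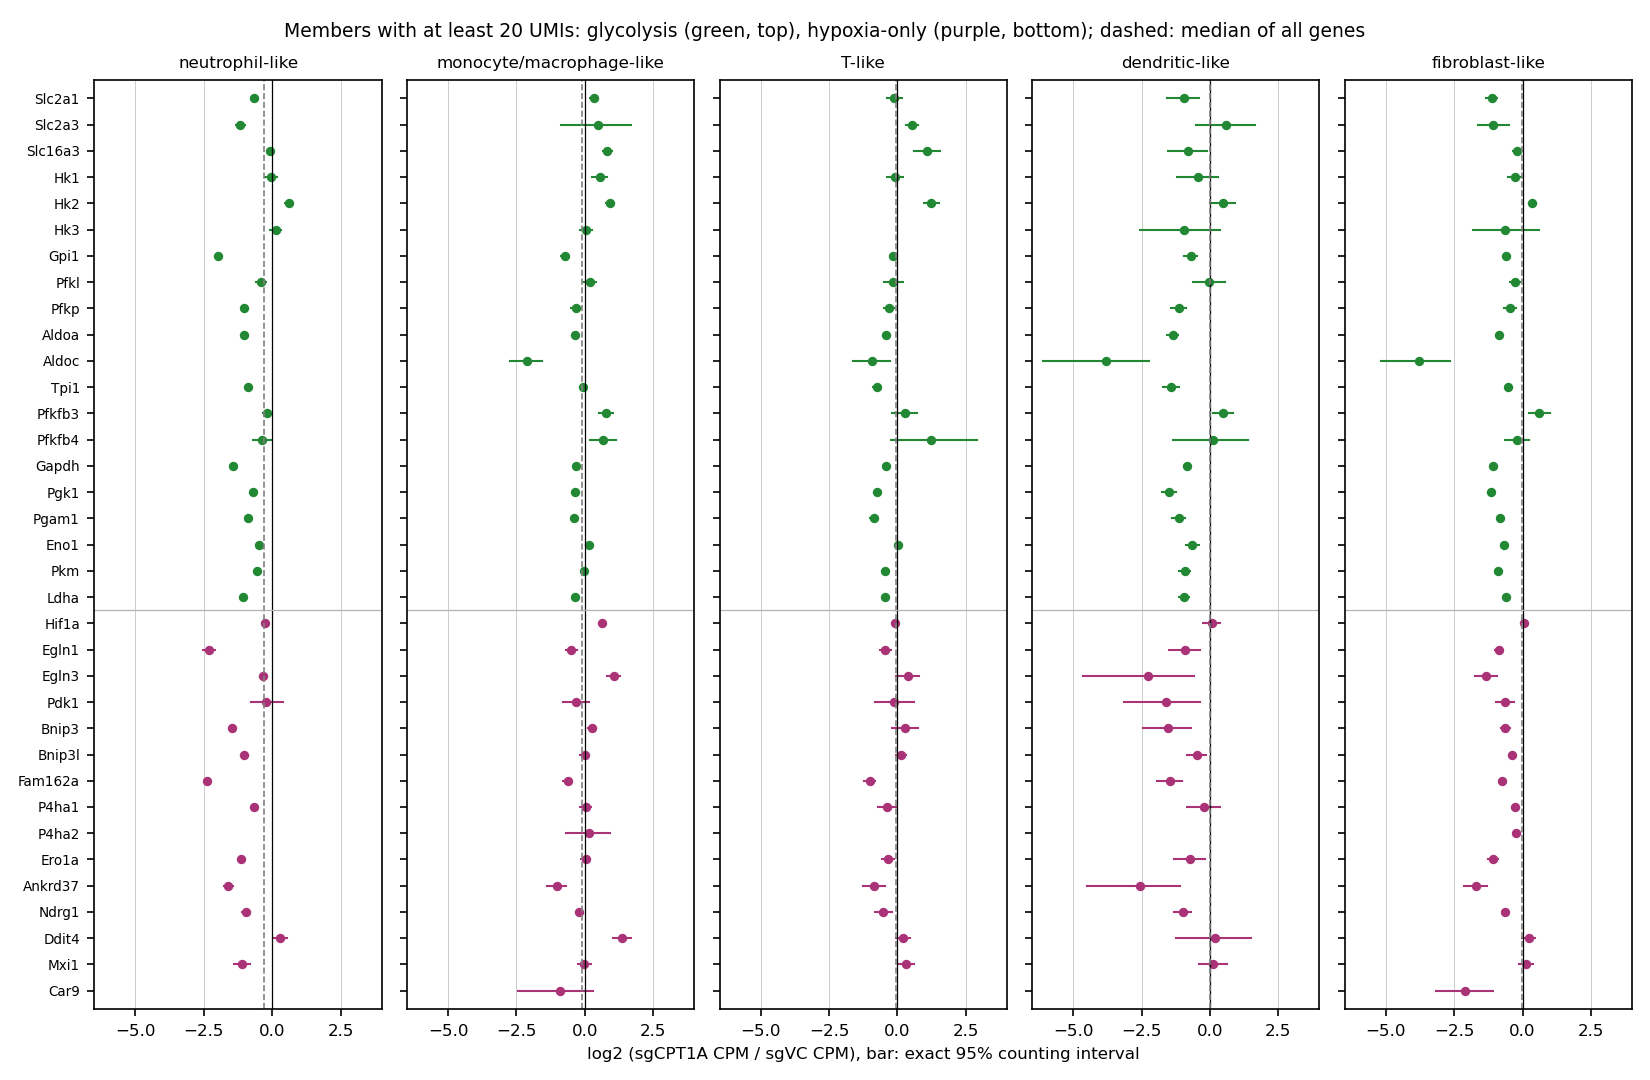
Each point is the log2 ratio of sgCPT1A over sgVC CPM of 1 member in 1 cell class, with its exact 95% counting interval, for members with 20 UMIs or more; glycolysis members are on top (green), hypoxia-only members below (purple), and the dashed line is the median of all genes of the class. Fam162a (-2.38) and Egln1 (-2.32) lie farthest left in neutrophil-like cells, most points in dendritic-like and fibroblast-like cells are left of 0, and monocyte/macrophage-like and T-like points lie on both sides.

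The neutrophil-like class was spread over 5 clusters, made without the members, that the libraries filled differently. Clusters 0 and 7 held 789 and 807 of the 1796 sgVC cells, while clusters 12, 14 and 15 held 1013, 1711 and 1681 of the 5122 sgCPT1A cells. Clusters 12, 14 and 15 had only 92, 55 and 53 sgVC cells, so ratios there rest on few sgVC UMIs for many members. Clusters 0 and 7 had 551 and 166 sgCPT1A cells. Averages over clusters count each cluster alike. In sgVC, cluster 0 had 6767 summed hypoxia-only CPM and 15223 summed glycolysis CPM, against 2405.5 and 8578 in cluster 7 and 1171 and 5504 in cluster 12. In sgCPT1A cluster 0 was again highest, at 3120.3 and 9354 CPM, and cluster 12 lowest, at 790.3 and 4226 CPM. Within the 5 clusters the glycolysis median ran from -0.58 to -0.38 and the hypoxia-only median from -1.04 to -0.53, while the median of all genes ran from -0.40 to -0.05. Both lists lay below all genes in each cluster, except that in cluster 14 the glycolysis median (-0.38) was not below that of all genes (-0.40). When each member's ratio was first averaged over clusters, the median of these averages was -0.41 for glycolysis and -0.65 for hypoxia-only genes, smaller than over the whole class; over the finer clusters of Leiden resolution 2, an alternative chosen after seeing the data, it was -0.37 and -0.60. Relative to the median of all genes, the class medians were -0.38 and -0.72. Fam162a was lower in each of the 5 clusters, with ratios from -2.28 to -1.28, and so was Bnip3, from -1.97 to -0.86. Hk2 was higher in cluster 0 (0.71, 0.52 to 0.90) and lower in cluster 7 (-0.88, -1.66 to -0.19, on 19 sgCPT1A UMIs). It was also higher in clusters 12 (0.05 to 2.14), 14 (0.52 to 2.14) and 15 (0.21 to 1.63), but on only 9, 14 and 18 sgVC UMIs.

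Some single differences were smaller within these clusters. Slc2a1 was past 1.5-fold in cluster 0 (-0.75) but not in clusters 7, 12, 14 and 15 (-0.43, -0.24, -0.10 and -0.51). Averaged over the 5 clusters, Slc2a1 (-0.41) and Pgk1 (-0.35) lay within 1.5-fold. The averages of Gpi1 (-1.17), Gapdh (-0.80), Egln1 (-1.49) and Fam162a (-1.71) were still past it, each more than 1.5-fold nearer to 0 than over the class. Egln1 was past 1.5-fold in clusters 0, 7 and 14 (-2.96, -1.26 and -2.43). It was within 1.5-fold in cluster 12 (-0.23, 3 and 41 UMIs) and cluster 15 (-0.55, 6 and 189 UMIs). Over the finer clusters of resolution 2, Slc2a1 (-0.35), Slc2a3 (-0.37), Pgk1 (-0.38), Pfkp (-0.55) and Mxi1 (-0.57) lay within 1.5-fold, and Gpi1 was at -0.81 and Gapdh at -0.69. Relative to the median of all genes, Slc2a1 (-0.38), Pgk1 (-0.40) and P4ha1 (-0.36) were within 1.5-fold. In cells with 500 genes or more so were P4ha1 (-0.52) and Hk2 (0.56), and with free RNA subtracted Hk2 (0.57).

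RNA of tumour cells was more plentiful in sgVC. In neutrophil-like cells Wfdc2, a tumour marker, was at 49.6 CPM in sgVC but 0.584 CPM in sgCPT1A, and the 10 tumour markers summed to 101 and 19.7 CPM, with 1 of them at 0 in each library. At the ratio of these genes in tumour-like cells, this Wfdc2 would bring 1.90% of the summed glycolysis CPM of sgVC neutrophil-like cells and 1.25% of their hypoxia-only CPM. Median depth per cell was 1460.5 UMIs in sgVC and 2628.5 in sgCPT1A, and its part in the ratios was not tested.

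Dendritic-like cells, which present antigen to T cells, had lower levels of most members of both lists in sgCPT1A over the class as a whole. Of 20 glycolysis members 14 were lower and 0 higher, and of 13 hypoxia-only members 8 were lower and 0 higher, against 18.1% lower and 18.4% higher over all 8483 genes. Median ratios were -0.89 and -0.91, against -0.0026 for all genes. Slc2a1 was at 62.3 CPM in sgVC against 32.2 CPM in sgCPT1A (log2 ratio -0.95, -1.56 to -0.38), and Slc16a3 at 38.2 CPM (sgVC) and 22.2 CPM (sgCPT1A), a log2 ratio of -0.79 (-1.54 to -0.09). Among the upper steps, Aldoc, the brain-type aldolase, stood lowest, at 42.5 CPM in sgVC against 3.02 CPM in sgCPT1A (log2 ratio -3.81, -6.12 to -2.22) on 90 and 3 UMIs. Tpi1 was at 322 CPM in sgVC against 121 CPM in sgCPT1A (log2 ratio -1.41, -1.71 to -1.13), and Aldoa at 640.5 CPM (sgVC) and 251 CPM (sgCPT1A), a log2 ratio of -1.35 (-1.55 to -1.16). Pfkp was at 291 CPM in sgVC against 132 CPM in sgCPT1A (log2 ratio -1.14, -1.43 to -0.87), and Gpi1 (345 to 212 CPM, -0.71) was lower too. Hk2 (0.47, 0.02 to 0.93) and Pfkfb3 (0.46, 0.09 to 0.83) lay above 0 within 1.5-fold. Slc2a3 rested on 20 and 14 UMIs (0.58, -0.52 to 1.64), and Hk3, which was lower, on 25 and 6 UMIs (-0.97, -2.54 to 0.36).

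The lower steps of dendritic-like cells were lower throughout, led by Pgk1, at 452 CPM in sgVC against 159 CPM in sgCPT1A (log2 ratio -1.50, -1.76 to -1.26). Pgam1 was at 388 CPM in sgVC against 176 CPM in sgCPT1A (log2 ratio -1.14, -1.38 to -0.90). Gapdh was at 1949.8 CPM in sgVC against 1081 CPM in sgCPT1A (log2 ratio -0.85, -0.95 to -0.75), Ldha at 676 CPM (sgVC) and 351 CPM (sgCPT1A), a log2 ratio of -0.95 (-1.12 to -0.78), Pkm at 539 CPM (sgVC) and 284 CPM (sgCPT1A), a log2 ratio of -0.92 (-1.12 to -0.73) and Eno1 at 275 CPM (sgVC) and 176 CPM (sgCPT1A), a log2 ratio of -0.64 (-0.89 to -0.39). The hypoxia-only genes were of like size. Fam162a was at 134 CPM in sgVC against 48.3 CPM in sgCPT1A (log2 ratio -1.47, -1.94 to -1.03). Bnip3 was at 40.6 CPM in sgVC against 14.1 CPM in sgCPT1A (log2 ratio -1.53, -2.46 to -0.70), and Ankrd37 at 23.6 CPM (sgVC) and 4.03 CPM (sgCPT1A), a log2 ratio of -2.55 (-4.48 to -1.10), on 50 and 4 UMIs. Ndrg1, a stress-responsive gene, stood at 197 CPM (sgVC) and 98.7 CPM (sgCPT1A), a log2 ratio of -1.0 (-1.33 to -0.68). Egln1 was at 64.2 CPM (sgVC) and 34.2 CPM (sgCPT1A), a log2 ratio of -0.91 (-1.49 to -0.36). Egln3 (31 and 3 UMIs; -2.28, -4.63 to -0.59) and Pdk1 (39 and 6 UMIs; -1.61, -3.14 to -0.36) rested on fewer UMIs. Ero1a was at 57.1 CPM in sgVC against 34.2 CPM in sgCPT1A (log2 ratio -0.74, -1.33 to -0.18), but at 0.10 when every cell was weighted alike. With free RNA subtracted, Fam162a (-0.27), Ero1a (-0.04) and Eno1 (-0.40) lay within 1.5-fold, whereas Slc16a3 was at -1.61. With the class made at Leiden resolution 2, Ndrg1 (-0.57) and Eno1 (-0.50) did too, and Ankrd37 was at -1.41. Within cluster 10 Bnip3 was at -2.22, and with the cells called doublets kept Fam162a was at -2.23. Hif1a was nearly level, at 130.3 CPM in sgVC against 136 CPM in sgCPT1A (log2 ratio 0.06, -0.25 to 0.36), with Mxi1 (0.12, -0.40 to 0.63) and Ddit4 (0.19, -1.26 to 1.52) beside it; P4ha2 (3 and 0 UMIs) and Car9 (12 and 0 UMIs) were not measured.

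Within cluster 10, the larger dendritic cluster with 157 sgVC and 69 sgCPT1A cells, which also carried markers of monocytes/macrophages and plasmacytoid dendritic cells, the medians were -1.07 and -1.17. Summed glycolysis there was 7170 CPM in sgVC and 3280 CPM in sgCPT1A, and hypoxia-only 954 and 516 CPM. Cluster 16, with 87 sgVC and 25 sgCPT1A cells, differed less, at 4315 and 3210 CPM for glycolysis and 824 and 709 CPM for hypoxia-only members. Subtracting free RNA left the hypoxia-only median of the class at -0.27. The share subtracted in sgVC was 13.9%, while single marker sets gave from 1.34% (fibroblast) to 34.4% (neutrophil). Tumour markers summed to 374 CPM in sgVC dendritic-like cells and 159 CPM in sgCPT1A, with 3 and 5 of 10 at 0. Among them Epcam, absent from tumour-like cells, was at 45.8 and 19.1 CPM, and Wfdc2 at 56.2 and 0 CPM. Wfdc2 in sgVC would bring 6.52% of the class's hypoxia-only CPM. Mitochondrial UMIs made up 1.40% of the median cell's UMIs in cluster 10 of sgVC and 3.05% in sgCPT1A, and their part was not tested.

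Fibroblast-like cells, the makers of collagen matrix, had more members of both lists lower than higher over the class as a whole. Of 20 glycolysis members 12 were lower and 1 higher, and of 15 hypoxia-only members 9 were lower and 0 higher; over all 13236 genes 13.5% were lower and 16% higher. The medians were -0.62 and -0.63, against -0.02 for all genes. Slc2a1 was at 73.1 CPM in sgVC against 33.3 CPM in sgCPT1A (log2 ratio -1.14, -1.33 to -0.94), and Slc2a3 at 9.15 CPM (sgVC) and 4.36 CPM (sgCPT1A), a log2 ratio of -1.07 (-1.64 to -0.50). Pgk1 was at 499 CPM in sgVC against 222 CPM in sgCPT1A (log2 ratio -1.17, -1.24 to -1.09). Gapdh was at 1834 CPM in sgVC against 874 CPM in sgCPT1A (log2 ratio -1.07, -1.11 to -1.03), and Pkm at 1119 CPM (sgVC) and 608 CPM (sgCPT1A), a log2 ratio of -0.88 (-0.93 to -0.83). Aldoc was again lowest, at 7.82 CPM in sgVC against 0.565 CPM in sgCPT1A (log2 ratio -3.79, -5.18 to -2.64) on 47 and 7 UMIs. The other enzymes past 1.5-fold were closer to that limit: Aldoa (558 to 308 CPM, -0.86), Pgam1 (423 to 238 CPM, -0.83), Eno1 (342 to 212 CPM, -0.69), Gpi1 (238 to 155 CPM, -0.62) and Ldha (681 to 451 CPM, -0.59). Pfkfb3 was the higher one, at 12.6 CPM in sgVC against 19.2 CPM in sgCPT1A (log2 ratio 0.60, 0.22 to 1.0), and Hk2 lay above 0 (0.35, 0.22 to 0.48). Hk3 rested on 12 and 16 UMIs (-0.63, -1.80 to 0.58).

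The collagen hydroxylases, which fibroblasts need to build stable collagen, differed little: P4ha1 was at 199 CPM in sgVC against 163 CPM in sgCPT1A (log2 ratio -0.29, -0.39 to -0.18) and P4ha2 at 208 CPM in sgVC against 178 CPM in sgCPT1A (log2 ratio -0.22, -0.32 to -0.12). Larger differences were seen among other hypoxia-only members. Ankrd37 was at 22.0 CPM in sgVC against 6.70 CPM in sgCPT1A (log2 ratio -1.71, -2.13 to -1.31). Egln3 was at 19.3 CPM in sgVC against 7.67 CPM in sgCPT1A (log2 ratio -1.33, -1.74 to -0.93), Egln1 at 132 CPM (sgVC) and 71.8 CPM (sgCPT1A), a log2 ratio of -0.88 (-1.02 to -0.74) and Ero1a at 97.7 CPM (sgVC) and 46.1 CPM (sgCPT1A), a log2 ratio of -1.08 (-1.25 to -0.91). The mitochondrial members were lower, Fam162a at 472 CPM (sgVC) and 279 CPM (sgCPT1A), a log2 ratio of -0.76 (-0.83 to -0.69) and Bnip3 at 92.4 CPM (sgVC) and 59.8 CPM (sgCPT1A), a log2 ratio of -0.63 (-0.79 to -0.47), as were Pdk1 (22.0 to 14.0 CPM, -0.65) and Ndrg1 (370.4 to 239 CPM, -0.63). Hif1a (0.06, -0.02 to 0.15), Ddit4 (0.22, -0.01 to 0.46) and Mxi1 (0.12, -0.13 to 0.39) were near or above 0. Car9 had 27 UMIs in sgVC and 13 in sgCPT1A, of which 12 came from 1 cell.

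Tumour RNA moved with this class as well. Wfdc2 was at 119 CPM in sgVC but 1.37 CPM in sgCPT1A fibroblast-like cells, the 10 tumour markers summed to 217 and 22.8 CPM with 1 and 0 of them at 0, and the sgVC level of Wfdc2 would bring 7.65% of the glycolysis and 5.85% of the hypoxia-only CPM. With free RNA subtracted the medians were -0.52 and -0.59. In cluster 6, the main fibroblast cluster, the median cell had 1.19% mitochondrial UMIs in sgVC and 2.34% in sgCPT1A, and their part was not tested.

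The libraries also filled the finer fibroblast clusters differently. At Leiden resolution 2 the class fell into a cluster of 241 sgVC and 129 sgCPT1A cells, one of 140 sgVC and 306 sgCPT1A cells and one of 19 sgVC and 79 sgCPT1A cells. In the first, 6 of 19 glycolysis members were lower and 0 higher, with a median of -0.42, and 6 of 15 hypoxia-only members were lower and 1 higher, with a median of -0.42, against -0.01 for all genes. In the second, 3 of 19 glycolysis members were lower and 3 higher, with a median of -0.31, and 3 of 14 hypoxia-only members were lower and 0 higher, with a median of -0.16, against -0.09 for all genes. Most members were thus within 1.5-fold in both clusters. The share of all genes past 1.5-fold was not counted within these clusters, so the member counts have no background beside them. The third had too few sgVC cells for a ratio.

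When each member's ratio was averaged over these first clusters, the medians were -0.36 and -0.34, and several single calls ended. Of the glycolysis members, Slc2a1 (-0.55), Slc2a3 (-0.22), Pkm (-0.44), Pgam1 (-0.50), Eno1 (-0.26), Gpi1 (-0.47) and Ldha (-0.36) came within 1.5-fold. Of the hypoxia-only members, Egln1 (-0.56), Fam162a (-0.25), Bnip3 (-0.25), Pdk1 (-0.40) and Ndrg1 (-0.34) did. With free RNA subtracted, Gpi1 (-0.52), Ldha (-0.51), Pdk1 (-0.52) and Pfkfb3 (0.47) lay within 1.5-fold, and Slc2a3 was at -1.67. With cells weighted alike, Slc2a3 (-0.41) and Pfkfb3 (0.35) lay within 1.5-fold. With doublets kept, Pfkfb3 was at 0.51 and Egln3 at -2.13.

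Monocyte/macrophage-like cells showed no shared direction over the class. Of 20 glycolysis members 4 were higher and 2 lower, and of 15 hypoxia-only members 3 were higher and 3 lower, against 15.1% higher and 25.2% lower over all 11113 genes. Median ratios were -0.0035 and -0.01, against -0.11 for all genes. The higher members were the inducible hexokinase, the lactate exporter and the regulators of phosphofructokinase. Hk2 was at 135 CPM in sgVC against 252 CPM in sgCPT1A (log2 ratio 0.90, 0.76 to 1.05). Slc16a3 was at 120.2 CPM in sgVC against 213 CPM in sgCPT1A (log2 ratio 0.82, 0.66 to 0.98). Pfkfb3 was at 53.5 CPM (sgVC) and 91.5 CPM (sgCPT1A), a log2 ratio of 0.78 (0.53 to 1.02), and Pfkfb4 at 14.8 CPM (sgVC) and 23.7 CPM (sgCPT1A), a log2 ratio of 0.68 (0.18 to 1.15). Lower were Aldoc, at 54.1 CPM in sgVC against 12.5 CPM in sgCPT1A (log2 ratio -2.11, -2.73 to -1.55), and Gpi1, at 496 CPM (sgVC) and 297 CPM (sgCPT1A), a log2 ratio of -0.74 (-0.86 to -0.62). Abundant enzymes differed by less than 1.5-fold, with Gapdh at 3566 CPM in sgVC against 2839 CPM in sgCPT1A (log2 ratio -0.33, -0.37 to -0.29), as did Pgam1 (-0.39, -0.48 to -0.31), Ldha (-0.35, -0.43 to -0.28) and Pkm (-0.04, -0.10 to 0.02).

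Hypoxia-only genes of monocyte/macrophage-like cells split likewise. Ddit4 was at 22.7 CPM in sgVC against 58.0 CPM in sgCPT1A (log2 ratio 1.36, 1.03 to 1.68), Egln3 at 48.6 CPM (sgVC) and 101 CPM (sgCPT1A), a log2 ratio of 1.06 (0.82 to 1.29) and Hif1a at 253 CPM (sgVC) and 387 CPM (sgCPT1A), a log2 ratio of 0.62 (0.50 to 0.73), all higher. Ankrd37 was at 79.7 CPM in sgVC against 39.0 CPM in sgCPT1A (log2 ratio -1.03, -1.37 to -0.70) and Fam162a at 268 CPM (sgVC) and 173 CPM (sgCPT1A), a log2 ratio of -0.63 (-0.79 to -0.47), both lower. Car9 had 50 and 6 UMIs (-0.93, -2.44 to 0.30), was at -1.68 with doublets kept, and turned to 0.17 with free RNA subtracted. The remaining members, Egln1, Pdk1, Bnip3, Bnip3l, P4ha1, P4ha2, Ero1a, Ndrg1 and Mxi1, lay within 1.5-fold.

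The class ratios of macrophage-like cells did not match those of its finer clusters. At Leiden resolution 2, a cluster of the class held 372 sgVC but only 16 sgCPT1A cells, and 2 clusters had 30 cells or more in each library, one with 456 sgVC and 201 sgCPT1A cells and the other with 559 and 86. The glycolysis median was -0.26 in the first and -0.53 in the second, and the hypoxia-only median -0.60 and -0.55, against -0.06 and -0.11 for all genes. Averaged over both, Egln3 was at -0.28, opposite to the class, while Hk2 (0.54), Slc16a3 (0.52) and Pfkfb3 (0.34) were above 0 within 1.5-fold and Ddit4 (0.90) was past it. Fam162a (-1.32) and Ankrd37 (-1.81) were farther below 0. With cells weighted alike, Egln3 (0.34), Hif1a (0.38), Pfkfb4 (0.45) and Slc16a3 (0.56) lay within 1.5-fold, as did Hif1a (0.55) with free RNA subtracted. Neutrophil markers in this class summed to 997 CPM in sgVC and 3961 CPM in sgCPT1A, with 0 of 10 at 0 in either, and their part in the ratios was not tested.

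T-like cells lay near the background. Of 19 glycolysis members 4 were lower and 3 higher, and of 13 hypoxia-only members 2 were lower and 0 higher, against 14% lower and 13.6% higher over all 10152 genes. Medians were -0.16 and -0.11, against -0.04 for all genes. Hk2, which T cells induce on activation, was 2.36-fold higher, at 51.0 CPM in sgVC against 120.4 CPM in sgCPT1A (log2 ratio 1.24, 0.98 to 1.51). It made up 46.8% (41.6 to 52.1) of hexokinase UMIs in sgVC and 67.1% (63.2 to 70.9) in sgCPT1A, and it was higher within cluster 1 (1.98), cluster 4 (1.01) and cluster 13 (1.02). Slc16a3 was at 17.0 CPM in sgVC against 35.9 CPM in sgCPT1A (log2 ratio 1.08, 0.61 to 1.56), and Pfkfb4 rested on 6 and 14 UMIs. Slc2a3, the leukocyte glucose carrier, lay above 0 within 1.5-fold (0.53, 0.31 to 0.76). Pgam1 was at 367 CPM in sgVC against 201 CPM in sgCPT1A (log2 ratio -0.87, -1.0 to -0.73). Pgk1 was at 614 CPM in sgVC against 365 CPM in sgCPT1A (log2 ratio -0.75, -0.85 to -0.65), Tpi1 at 429 CPM (sgVC) and 255 CPM (sgCPT1A), a log2 ratio of -0.75 (-0.88 to -0.63) and Aldoc at 17.0 CPM (sgVC) and 8.98 CPM (sgCPT1A), a log2 ratio of -0.92 (-1.61 to -0.26). The remaining enzymes, among them Gapdh (-0.43, -0.47 to -0.38), lay within 1.5-fold.

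Of hypoxia-only genes in T-like cells, Fam162a was at 197 CPM in sgVC against 97.6 CPM in sgCPT1A (log2 ratio -1.01, -1.21 to -0.82) and Ankrd37 at 43.5 CPM (sgVC) and 24.0 CPM (sgCPT1A), a log2 ratio of -0.86 (-1.27 to -0.46). The other measured members lay within 1.5-fold, among them Hif1a, at 600.3 CPM in sgVC against 559 CPM in sgCPT1A (log2 ratio -0.10, -0.19 to -0.01), and the highest, Egln3 (0.38, -0.04 to 0.80), Mxi1 (0.30, 0.02 to 0.59) and Bnip3 (0.28, -0.21 to 0.76). P4ha2 (7 and 6 UMIs) and Car9 (3 and 2 UMIs) were not measured. The myeloid hexokinase Hk3 had 0 UMIs in sgVC and 16 in sgCPT1A T-like cells, while neutrophil markers there summed to 343 CPM and 2484 CPM, with 0 of 10 at 0. The part of neutrophil RNA in the Hk2, Hk3 and Slc16a3 values was not tested. With the sgVC cells called doublets kept, the medians were -0.66 and -1.12, Fam162a was at -2.24 and Aldoc at -1.91.

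Some members behaved alike in each of the 5 host classes, which share the same pair of libraries and so are not independent. Fam162a was lower by 1.5-fold or more in each, with ratios from -2.38 to -0.63, and so was Ankrd37, from -2.55 to -0.86. Ankrd37 was past 1.5-fold in each class under each setting tried, but Fam162a was not. With free RNA subtracted, Fam162a was at -0.23 in monocyte/macrophage-like and -0.27 in dendritic-like cells, where marker sets gave widely unlike free shares. Averaged over the finer clusters of resolution 2, Fam162a was at -0.25 in fibroblast-like cells. In monocyte/macrophage-like cells it was also within 1.5-fold with stricter limits on genes per cell (-0.58) or mitochondrial UMIs (-0.56) and relative to the median of all genes (-0.51). Hk2 lay above 0 in each, from 0.35 to 1.24. Aldoc was lower in the 4 classes where it was measured; with free RNA subtracted its ratio was -2.07 in monocyte/macrophage-like and -3.11 in fibroblast-like cells, and its level in sgVC tumour-like cells was 46.3 CPM. Hif1a lay between -0.26 and 0.62; its product is controlled mainly at the protein level, which RNA counts do not show.

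The same libraries differed in other measures beside these ratios, whose part was not tested. Neutrophil markers summed, in sgVC and sgCPT1A, to 642 and 1839 CPM (0 and 1 of 10 at 0) in dendritic-like and 201 and 745 CPM (1 and 0 of 10 at 0) in fibroblast-like cells. Tumour markers summed to 82.0 and 10.2 CPM (3 and 3 of 10 at 0) in monocyte/macrophage-like and 166 and 77.9 CPM (3 and 2 of 10 at 0) in T-like cells. Such sums need not be tumour RNA alone. Epcam, which is among the 10, had 0 UMIs in sgVC tumour-like cells but was at 9.24 and 7.49 CPM in T-like cells. Wfdc2 was at 24.8 and 0.299 CPM there. The median cell had 1.81% and 3.25% mitochondrial UMIs in the monocyte/macrophage cluster and 2.32% and 4.46% in cluster 4, the largest T-like cluster.

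Tumour-like cells of sgVC fell into 3 clusters made without the members, and the members ordered them in the same way in both lists. Cluster 11 (429 cells, median 9212 UMIs) had 16285 summed glycolysis and 5890.5 summed hypoxia-only CPM, cluster 2 (2172 cells, 20210.5 UMIs) 11652 and 3369.8, and cluster 5 (1857 cells, 33835 UMIs) 8819 and 1757. Cluster 5 was the dividing one, with the cycle marker Mki67 at 241 CPM against 13.3 in cluster 2 and 18.4 in cluster 11. In the order 11, 2 and 5, Slc2a1 was at 458, 134 and 67.1 CPM, Ndrg1 at 1627, 532 and 169 CPM, Ero1a at 941, 333 and 143 CPM, Bnip3 at 403, 182 and 76.2 CPM and Car9 at 60.0, 38.6 and 10.8 CPM. Hif1a was lowest in cluster 11, at 90.4, 125 and 115 CPM in the same order.

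Cluster 11 exceeded cluster 2 by 1.5-fold or more for 8 of 15 hypoxia-only and 4 of 19 glycolysis members measured and was lower for 0, while over all 13218 genes it was higher for 6.26% and lower for 18.8%. The largest was Slc2a1, 3.43-fold, then Ndrg1, 3.06-fold, and Ero1a, 2.83-fold. Cluster 2 exceeded the dividing cluster 5 for 11 of 15 hypoxia-only and 9 of 20 glycolysis members and was lower for 0, against 14.1% higher and 9.71% lower over 14729 genes, led by Car9 (3.56-fold) and Ndrg1 (3.16-fold). Lower steps such as Gapdh, at 5075, 3616 and 3062 CPM, and Pkm, at 1383, 1212 and 997 CPM, differed less. The clusters also differed in depth, whose part was not tested.

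**Figure D4:**
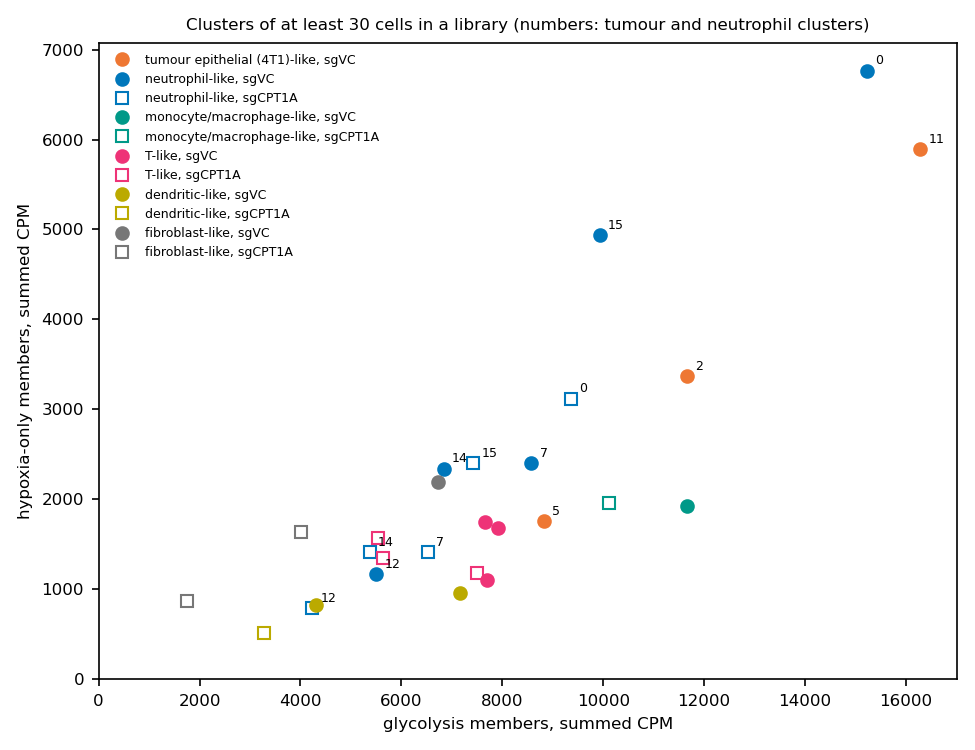
Summed CPM of the glycolysis members (x) against the hypoxia-only members (y) for each cluster with at least 30 cells in a library; filled circles are sgVC, open squares sgCPT1A, and numbers mark the tumour-like and neutrophil-like clusters. Neutrophil cluster 0 (6767 hypoxia-only CPM) and tumour cluster 11 (5890.5) of sgVC stand at the top right.

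Single tumour-like cells with a Car9 UMI were also richer in the other members. Each cell was thinned to 5000 UMIs, which left out 214 shallower cells; 452 cells then had a Car9 UMI and 3792 had none. Ndrg1, a stress-induced gene of differentiating cells, was at 5.96 UMIs per cell with and 2.02 without (2.95-fold), Ero1a at 3.67 UMIs per cell with and 1.29 without (2.85-fold), P4ha2 at 0.524 UMIs per cell with and 0.183 without (2.86-fold), Bnip3 at 1.77 UMIs per cell with and 0.683 without (2.59-fold) and Pgk1 at 6.41 UMIs per cell with and 3.04 without (2.11-fold). In all, 11 of 14 hypoxia-only and 14 of 18 glycolysis members were 1.5-fold or more higher in cells with Car9 and 0 were lower, against 6.98% higher and 14.9% lower over 11950 genes. The median log2 ratio was 0.96 and 0.66, against -0.08 for all genes. Hif1a was nearly level (0.617 and 0.600 UMIs per cell), and Pfkfb4 was at 0.0686 and 0.0762. Car9 was found in 17.9% of thinned cells of cluster 11, 14.7% of cluster 2 and 4.87% of cluster 5, and within these clusters the hypoxia-only median was 0.56, 0.64 and 1.38, with 7 of 14, 8 of 14 and 13 of 14 members higher. Of the glycolysis members, 1 of 16 were higher and 2 lower in cluster 11, 6 of 17 higher in cluster 2 and 12 of 17 in cluster 5, with medians of 0.36, 0.52 and 0.78, against -0.05, -0.08 and -0.10 for all genes. Cells with a Car9 UMI numbered 50, 313 and 89 in these clusters. The share of all genes past 1.5-fold was not counted within them, so the counts by cluster have no background. The pentose phosphate and pyruvate entry genes, given for comparison, had a median of -0.14, with 1 of 16 higher. Cells of 1 library are not replicates, and a cell without a Car9 UMI may still express the gene.

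**Figure D5:**
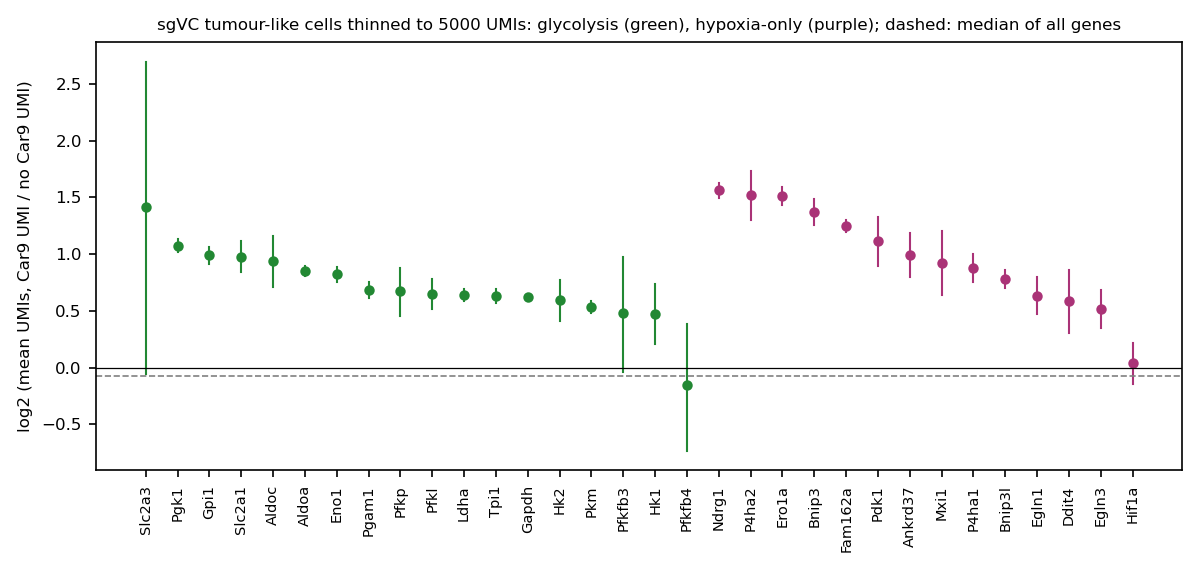
The log2 ratio of mean UMIs per cell between sgVC tumour-like cells with and without a Car9 UMI, after thinning to 5000 UMIs, for each member with 20 UMIs or more; bars are exact 95% counting intervals and the dashed line is the median of all genes. Ndrg1, P4ha2 and Ero1a lead the hypoxia-only members, and Hif1a lies at 0.04.

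Other genes of these pathways were compared from lists of their own, chosen by known role. In neutrophil-like cells, 11 of 13 measured genes of the pentose phosphate pathway and pyruvate entry were lower and 0 higher, with a median of -1.15; Taldo1, the transaldolase, was at 346 CPM in sgVC against 189.7 CPM in sgCPT1A (log2 ratio -0.87, -0.98 to -0.76), Pgls at 26.6 CPM in sgVC against 7.08 CPM in sgCPT1A (log2 ratio -1.91, -2.36 to -1.45) and Tkt, the transketolase, at 42.7 CPM in sgVC against 12.4 CPM in sgCPT1A (log2 ratio -1.78, -2.13 to -1.43). The dividing line of higher and lower is again 1.5-fold, with the background shares given for each class above. Of 18 further hypoxia responders 10 were lower and 2 higher. Over all genes of neutrophil-like cells 36% were lower and 17.5% higher, with a median of -0.30. Hilpda, which restrains lipid droplet breakdown, was at 2194 CPM in sgVC against 1498 CPM in sgCPT1A (log2 ratio -0.55, -0.59 to -0.51), Plin2, the coat of lipid droplets, at 1178 CPM in sgVC against 787 CPM in sgCPT1A (log2 ratio -0.58, -0.64 to -0.53) and Higd1a at 412 CPM in sgVC against 149.7 CPM in sgCPT1A (log2 ratio -1.46, -1.57 to -1.35). Slc2a6, a carrier of the glucose transporter family, was higher, at 43.1 CPM in sgVC against 119 CPM in sgCPT1A (log2 ratio 1.47, 1.20 to 1.75).

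Outside neutrophils the same lists gave smaller medians. The pentose phosphate and pyruvate entry list had medians of -0.26 in monocyte/macrophage-like, -0.42 in T-like, -0.21 in dendritic-like and -0.13 in fibroblast-like cells, with 5 of 15, 3 of 15, 3 of 14 and 3 of 17 measured genes lower. Over all genes, 25.2%, 14%, 18.1% and 13.5% were lower in these classes. The medians of all genes were -0.11, -0.04, -0.0026 and -0.02. Further hypoxia responders had medians of 0.13, 0.24, -0.22 and -0.24 in the same classes. In monocyte/macrophage-like cells 6 of 19 of them were higher and 2 lower, against 15.1% higher and 25.2% lower over all genes. Plin2 in these cells was at 553 CPM in sgVC against 1376 CPM in sgCPT1A (log2 ratio 1.31, 1.25 to 1.38). Fibroblast-like cells had Lox, a collagen cross-linking enzyme and HIF target, at 791 CPM in sgVC against 813 CPM in sgCPT1A (log2 ratio 0.04, -0.01 to 0.09) and Epas1, which encodes HIF-2α, at 250.4 CPM in sgVC against 431 CPM in sgCPT1A (log2 ratio 0.78, 0.70 to 0.87). In dendritic-like cells the cytokine gene Mif was at 390.3 CPM in sgVC against 158 CPM in sgCPT1A (log2 ratio -1.30, -1.56 to -1.06).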

How the data were processed

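The deposited files hold UMI counts per gene and cell barcode, as 10x matrices, 1 for sgVC and 1 for sgCPT1A; per the file headers, Cell Ranger 7.1.0 made them. Per the submitters' processing notes, Seurat 4.1.0 and the build GRCm38 were used as well. The annotation and the handling of reads shared between gene copies are not given in the sources used here. The listed sample without a file was not analysed here.

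Cells with fewer than 200 genes or more than 20% mitochondrial UMIs were left out. Doublets were called with Scrublet in scanpy 1.11.5: in sgVC 291 of 9610 cells (3.03%) were left out, whereas in sgCPT1A 1 of 6743 was called, which was taken as a failure of the caller, and none was left out. Cells were normalised to 10000 UMIs and clustered together on 2000 variable genes, without the 35 members and the other listed pathway genes, with 30 components, 15 neighbours and Leiden resolution 1. A cluster was named "X-like" when 3 or more markers of that type stood 2-fold or more above the median cluster and were found in 10% or more of its cells, and when no other type led its 10 top genes. UMIs were summed per class and library (Python 3.11.15, numpy 2.4.6, pandas 2.3.3).

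With 1 library per group no test was possible. Levels carry exact Poisson intervals, ratios exact conditional binomial intervals and shares exact Clopper-Pearson intervals (scipy 1.17.1), all at 95%. They cover counting error only. The ratio intervals were tried on counts simulated with counting error alone. That check could not show spread between cells or libraries. "Free RNA subtracted" removes the library's own profile, scaled by other classes' markers found in the class. The share was 15.0% in sgVC and 7.61% in sgCPT1A monocyte/macrophage-like cells, and 13.9% and 4.19% in dendritic-like cells. Single marker sets disagreed. In sgVC monocyte/macrophage-like cells tumour markers gave 2.50% and neutrophil markers 53.4%. Whether a class makes some of these markers itself was not tested, so too much may have been subtracted. Values in full were given for members with 50 UMIs or more that differed 1.5-fold, for the 3 highest and 3 lowest ratios of each list, for the highest-level member of each subgroup and for the isozyme families; genes of the other lists were those of highest level or largest ratio in a class, and not all of them are printed. The members and lists were chosen with earlier results of these data known.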

Additional observations from a re-analysis of the deposited data

Results flagged for a closer look

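Egln3, the hydroxylase gene that HIF itself induces, differed in opposite directions in 2 host classes: its log2 ratio of sgCPT1A over sgVC was 1.06 in monocyte/macrophage-like cells and -1.33 in fibroblast-like cells, each past 2-fold. The difference between the classes was not tested, since each group has 1 library. Averaged over the 2 shared macrophage clusters of Leiden resolution 2, the macrophage value was -0.28.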

How the results depend on the processing

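The list medians of glycolysis and hypoxia-only genes kept their sign in neutrophil-like, dendritic-like, T-like and fibroblast-like cells under the 13 settings tried. Their size moved in some. In neutrophil-like cells scaling by the median gene gave -0.38 and -0.72, averaging each member within shared clusters -0.41 and -0.65, and the same at Leiden resolution 2 -0.37 and -0.60. In monocyte/macrophage-like cells that last setting gave -0.22 and -0.60, and weighting every cell alike a glycolysis median of -0.23. In fibroblast-like cells it gave -0.36 and -0.34, weighting cells alike a hypoxia-only median of -0.82, and keeping doublets a glycolysis median of -0.80. Keeping doublets gave -0.66 and -1.12 in T-like cells, and subtracting free RNA a hypoxia-only median of -0.27 in dendritic-like cells. The cause of these moves was not tested.

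Of single members past 1.5-fold, 3 changed sign: Egln3 in monocyte/macrophage-like cells (-0.28 within clusters at resolution 2), Car9 there (0.17 with free RNA subtracted) and Ero1a in dendritic-like cells (0.10 with cells weighted alike). Of 79 such values, 56 of 78 stayed past 1.5-fold within clusters at resolution 2, 68 with free RNA subtracted, 71 with cells weighted alike and 74 to 79 under the other settings. The resolution 2 average within clusters was chosen after seeing the data. No paired analysis was possible because each group has 1 library, and no library could be left out for the same reason. At the depth of 94 dendritic-like and 300 monocyte/macrophage-like sgCPT1A cells, members with few UMIs have wide counting intervals.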

Other observations

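Smaller classes were left out of the comparisons. NK-like cells (84 in sgVC, 32 in sgCPT1A) had 7683 (7448 to 7924) summed glycolysis CPM in sgVC and 4199 (3914 to 4499) in sgCPT1A. Their hypoxia-only genes summed to 1236 (1143 to 1335) and 708 (594 to 838) CPM. Pericyte/smooth muscle-like cells (51 and 73), which wrap small vessels, had 5954 (5779 to 6132) and 3036 (2941 to 3133) glycolysis CPM, and 1203 (1125 to 1285) and 811 (762 to 862) hypoxia-only CPM. Basophil/mast-like cells (38 and 15) had 5892 (5404 to 6412) and 3659 (3082 to 4313) glycolysis CPM, with overlapping hypoxia-only sums of 1832 (1565 to 2132) and 1933 (1520.2 to 2423) CPM.

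A cluster with the epithelial marker Epcam, apart from the Epcam-negative tumour-like cells, held 13 sgVC and 30 sgCPT1A cells. Its summed glycolysis level was 5371 (5037 to 5722) CPM in sgVC and 4779 (4612 to 4950.2) CPM in sgCPT1A, and its hypoxia-only level 1047 (903 to 1209) and 899 (827 to 975) CPM, both below the 10232 and 2557 CPM of sgVC tumour-like cells.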
